A study of Ictalurus punctatus and Ictalurus punctatus x Ictalurus furcatus with 18 samples.

Results

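Of 144746 assembled transcripts, 17952 reached the level required here in channel catfish liver. Of these, 84 were strongly reduced in hybrid catfish, and these 84 are described here. They were chosen on the measured levels. A transcript had to reach a mean of at least 5 CPM (reads of a transcript per 1e+06 reads on all transcripts) in the Red River channel libraries and in the high-temperature Delta Select channel libraries. Its highest hybrid library had to lie below the lowest of those 9 channel libraries, and the hybrid mean had to be under 0.35 of the lower channel mean. A ceiling of 200 transcripts was not reached.

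The study kept fingerling catfish for 6 weeks in water that cycled every day, either from 27 to 31 °C (low) or from 32 to 36 °C (high), and sequenced liver RNA. The groups were Red River channel catfish (RRxRR High and RRxRR Low), Delta Select channel catfish (DSxDS High and DSxDS Low) and Delta Select hybrids (DS hybrid High and DS hybrid Low), with 3 libraries each and 18 in all. Each library pooled RNA of 3 fish from a single tank, so differences between single fish are averaged out. Sex, exact age and the genotype of single fish were not given in the labels used here. The labels call the hybrid type only a hybrid of the Delta Select strain. The library codes run H1 to H9 at the high and L1 to L9 at the low temperature.

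The farmed hybrid catfish is, as background, the offspring of a channel catfish mother and a blue catfish father. Each cell of such a hybrid carries a copy of every autosomal gene from each parent species, and regulators made by either genome can act on both copies. A transcript in a hybrid can therefore lie between the parental levels, at the level of either parent, or outside them, and blue catfish, the parent species that would tell these apart, is not among the labelled groups. The liver makes plasma proteins, bile and lipoproteins and carries out much of the metabolism that shifts with water temperature in fish.

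The identifiers of the transcripts consist of a k-mer size and a number from an assembly. None of the 84, and 0 of all identifiers, matched the 32344 genes of the reference table for channel catfish (Coco_2.0), so genes, functions and sequences of the members were not determined here. The liver label could not be checked against marker genes for the same reason. In tissue RNA, fewer cells of a type and less RNA per cell cannot be told apart. The libraries held 36242058 to 76146359 reads on transcripts. Libraries L3 and L5 stood apart from the other channel libraries. In 27 transcripts with a mean of at least 5 CPM in hybrids and under 0.1 CPM in each of the 9 channel libraries, the median level was near the hybrid one in L3 and in between in L5. On a scale of 0 for the hybrid mean and 1 for the channel mean, it was 0.0454 in L3, 0.649 in L5 and 1.0003 in L8. A mix-up or a mixed pool was not tested and cannot be settled from the files, so values of the libraries labelled DSxDS Low may not describe Delta Select channel catfish alone. Results that use L3 and L5 are therefore given with and without them.

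Strong reduction in hybrids was rare among expressed transcripts, and in no member was it a complete loss. Of 17952 transcripts with the required mean in both channel groups, 2746 (15.3%) had all hybrid libraries below all 9 channel libraries, and the 84 members were 0.468% of the 17952. The median ratio of the hybrid to the lower channel mean was 0.931 over the 17952 (quartiles 0.746 and 1.18). Over the members it was 0.302, with a range from 0.0502 to 0.349. Most members lay close to the limit, with 43 between 0.3 and 0.35, 19 between 0.25 and 0.3, 9 between 0.2 and 0.25, 12 between 0.1 and 0.2, and 1 below 0.1. These values chose the members and are given as a description. A further 49 transcripts had a ratio under 0.35 but overlapped between the types.

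**Figure D1:**
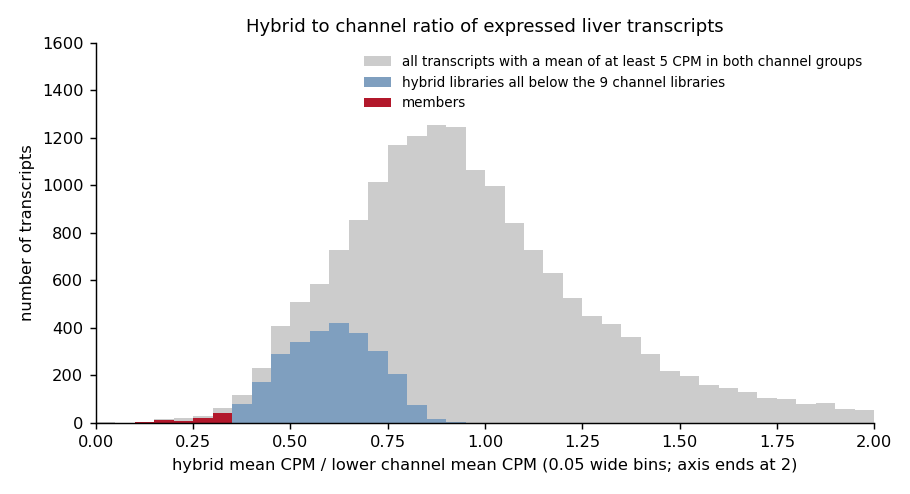
Number of transcripts (vertical axis) by the ratio of the hybrid mean to the lower channel mean in CPM (horizontal axis, bins of 0.05, cut off at 2), for the 17952 expressed transcripts (grey), the 2746 without overlap (blue) and the 84 members (red). The members form the low edge of a broad distribution with a median of 0.931.

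Reads were found for each member in each hybrid library. The lowest count of any member in any hybrid library was 10 reads, and the summed reads over the 6 hybrid libraries ran from 87 to 11111 per member, with a median of 813.5. The opposite pattern was both more frequent and more complete. The same rule with the types exchanged found 1031 transcripts, among 18478 with a hybrid mean of at least 5 CPM. The 27 transcripts near absent in channel catfish had no counterpart, since 0 transcripts with the required channel means were under 0.1 CPM in every hybrid library. As given above, the farmed hybrid carries gene copies of both parent species, so the directions are not a like comparison. The cause of the contrast was not tested.

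The member of lowest ratio, k50:1937876, differed widely among channel libraries. It had 0.26 to 0.501 CPM in the 6 hybrid libraries. In RRxRR Low it was at 32.9 (L2), 33 (L6) and 68.1 CPM (L9), and in RRxRR High at 4.5 (H1), 7.26 (H4) and 7.91 CPM (H7). All channel libraries of the rule were above all hybrid libraries, and Red River fish at the low temperature stood above the rest of them. In DSxDS High it was at 12 (H3), 5.2 (H5) and 3.39 CPM (H9). The libraries of DSxDS Low had 1.58 (L3), 4.66 (L5) and 14.3 CPM (L8), all above the hybrid range.

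The next member by ratio, k50:1075571u (0.14), was at a higher level in RRxRR High than in DSxDS High, with an adjusted p of 0.223 (edgeR). Its levels were 33.5, 46.6 and 58 CPM in RRxRR High and 26.5, 34.4 and 19.1 CPM in RRxRR Low. In DSxDS High they were 21.8, 12.5 and 20.5 CPM, below RRxRR High without overlap. The hybrid libraries had 2 to 3.34 CPM, and L3, at 2.66 CPM, lay within that range, while L5 had 9.42 and L8 12.3 CPM.

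The 2 members of highest CPM in channel catfish were k94:1397778 and k62:2045892. CPM is not corrected for transcript length, which is not in the table, so levels are compared within a transcript only. The former had 117, 78 and 106 CPM in RRxRR High, 191, 145 and 154 CPM in RRxRR Low and 163, 105 and 165 CPM in DSxDS High. Hybrid libraries had 29.9 to 72.7 CPM, and the highest of them was L4. Library L8 was at 30.3 CPM, inside the hybrid range, whereas L3 and L5, at 106 and 151 CPM, were inside the channel range. L8 was thus the lowest of the 3 DSxDS Low libraries here, where it was the highest in most members.

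The latter, k62:2045892, had higher levels at the high temperature in each type, with an adjusted p of 0.0748 in Red River fish (edgeR) and the calls in the other types given below. It had 128, 175 and 172 CPM in RRxRR High against 114, 68.9 and 77.9 CPM in RRxRR Low. In hybrids it had 50.9, 48.5 and 33.9 CPM at the high and 14.6, 14.3 and 19.7 CPM at the low temperature. In DSxDS High it had 138, 177 and 118 CPM, against 27.5 (L3), 52.8 (L5) and 55.5 CPM (L8) in DSxDS Low. High and low libraries did not overlap in any of the types.

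At the limit of the rule, k66:1058615 was the last member, with a ratio of 0.349, and k86:783984u, with 0.35, was the first transcript outside. The former had a mean of 12.3 CPM in RRxRR, 12.1 in DSxDS High and 4.22 in hybrid libraries. The latter had 171, 229.7 and 59.8 CPM. The transcript of lowest ratio that was left out for overlap, k58:6696, had 274 CPM in L6, 31.6 in H5 and at most 0.384 CPM in every other library, so single libraries made its channel means.

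**Figure D2:**
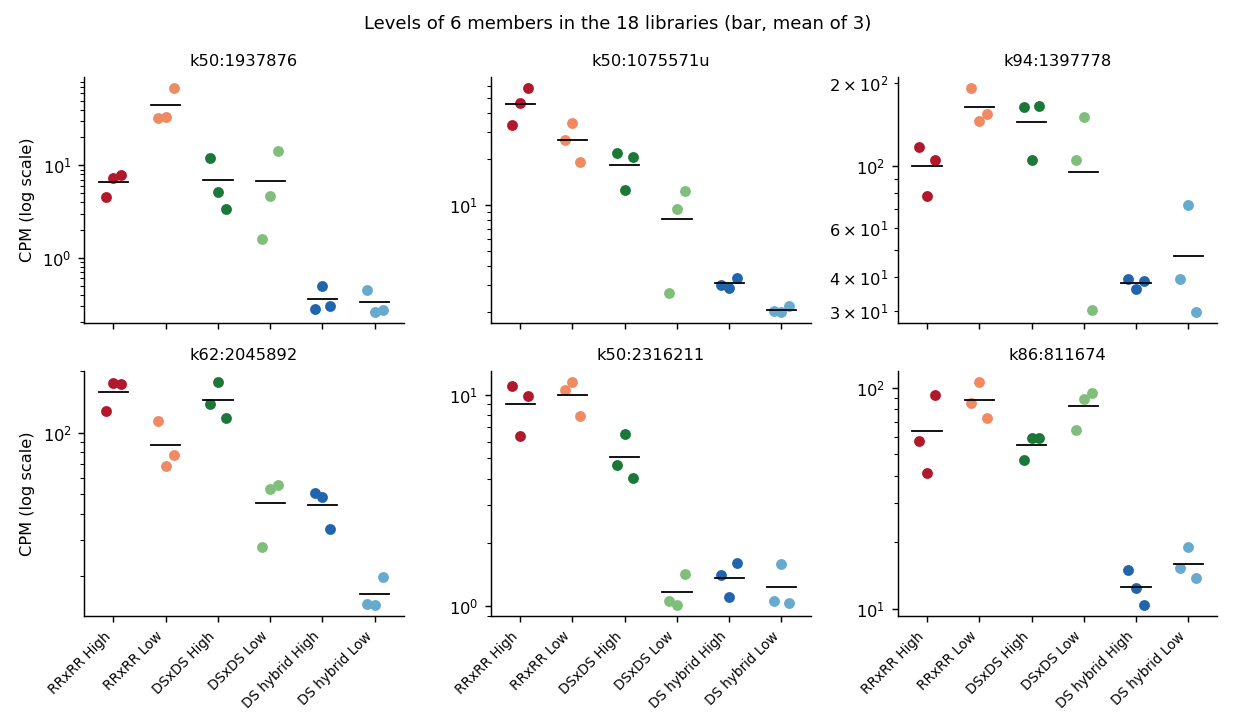
Level in CPM (vertical axis, log scale, separate for each panel) of 6 members in the 18 libraries by group; points are libraries and bars are means of 3. In each panel the 6 hybrid libraries (blue) lie below the 9 libraries of RRxRR and DSxDS High, while the 3 libraries of DSxDS Low (light green) lie at different heights.

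Most members were of modest level, and few ran together. The mean over the 9 channel libraries was below 10 CPM in 30 members, from 10 to 50 CPM in 47 and higher in 7. Together the members held 0.179% to 0.211% of the reads on transcripts in the 9 channel libraries and 0.0376% to 0.0576% in the hybrid libraries. Their share was 0.077% in L3, 0.12% in L5 and 0.125% in L8. The k-mer size in the identifier had a median of 70 in the members, 82 in the 17952 expressed transcripts and 66 in the whole table. A k-mer size of 50 was carried by 15.5% of the members, by 5.4% of the expressed transcripts and by 19.5% of the whole table.

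Some identifiers may stand for the same gene, which the table does not tell. Of 3486 pairs of members, 13 had a Pearson correlation above 0.95 over the 9 channel libraries, in log2(CPM + 0.5), and they formed 10 sets with 23 members, the largest with 4. The correlation is a description over 9 libraries that share depth and tank effects, and its median over all pairs was 0.0733. The closest pair, k78:1282496 and k82:1040977 (0.997), named after its values were seen, kept a ratio of 0.647 to 0.734 in the channel and 0.584 to 0.676 in the hybrid libraries. The identifier k70:339092 ran with k50:1075571u (0.994) at a ratio of 1.08 to 1.44 in the channel and 0.786 to 1.25 in the hybrid libraries. Counting each set a single time leaves 71 patterns.

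On a linear scale of CPM, the hybrid libraries were closer to each other than the 9 channel libraries. Low hybrid levels take up little of such a scale, so it does not show the relative spread. The summed share of reads on the members ran from 0.0376% to 0.0576% in hybrid libraries and from 0.179% to 0.211% in the 9 channel libraries. Relative to its level, this share varied more among the hybrid than among the 9 channel libraries. Each member was placed on a scale from 0, its hybrid mean, to 1, its mean over the 9 channel libraries. The median position of the 84 members was between -0.0792 and 0.0459 in hybrid libraries and between 0.856 and 1.15 in the 9 channel libraries, which the rule itself fixes in part. The 3 hybrid libraries of the high temperature (0.0459, 0.0356 and 0.0177) lay above those of the low temperature (-0.0678, -0.0039 and -0.0792). When the members were chosen anew without a given hybrid library, its median position was between -0.0622 (L7) and 0.12 (H2). It then lay below all 9 channel libraries in 94 of 102 transcripts for H2 and in 72 of 73 for L7. The choice still required low levels in the other hybrid libraries, and the same shares over all transcripts were not determined.

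**Figure D3:**
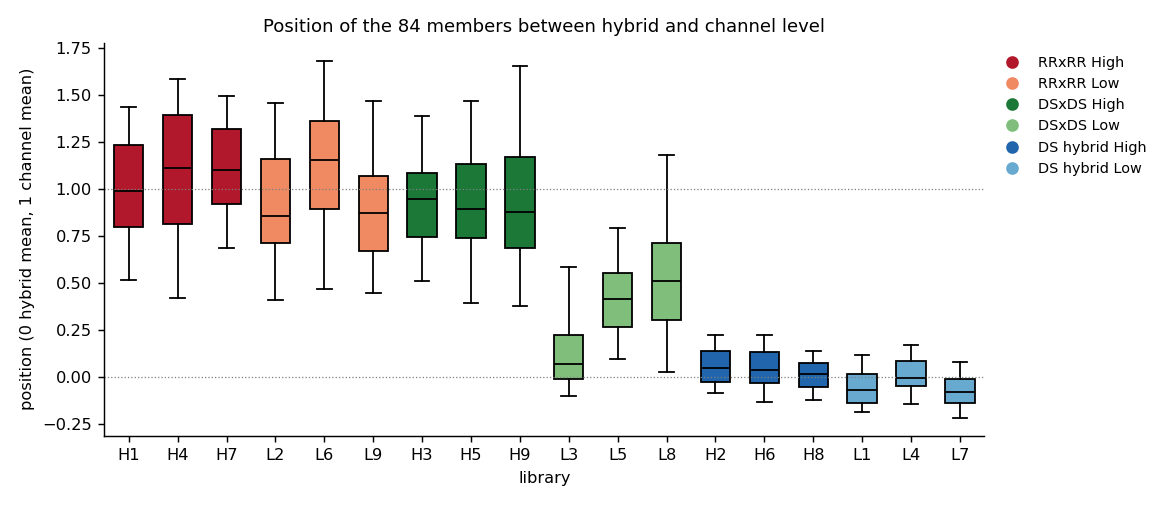
Position of the 84 members (vertical axis, 0 for the hybrid mean and 1 for the mean of the 9 channel libraries) in each of the 18 libraries; boxes give median and quartiles and whiskers the 5th and 95th percentiles. The hybrid libraries lie near 0 and the 9 channel libraries near 1 by choice, and the libraries L3, L5 and L8, which the rule did not use, have medians of 0.0685, 0.412 and 0.51.

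The DSxDS Low libraries were not used in the choice, and in all 3 of them the median member lay below the level of the other channel catfish. Whether L3 and L5 hold Delta Select channel fish alone cannot be told from the files, so L8 is the only library of this group without that doubt. The median position was 0.0685 in L3 (quartiles -0.00863 and 0.224), 0.412 in L5 (0.266 and 0.555) and 0.51 in L8 (0.303 and 0.715). L3 was thus near the hybrid level, and L5 and L8 were about midway. Library L3 was above every hybrid library in 33 of the 84 members (39.3%, against 19.8% of the 96799 transcripts tested), L5 in 74 (88.1%, against 23.8%) and L8 in 70 (83.3%, against 22.3%). The rule chose members for low levels in these same hybrid libraries, so the choice itself favours the higher shares in the members. Relative to the mean of the 9 channel libraries, the median log2 ratio of CPM + 0.5 was -1.59 in L3, -0.76 in L5 and -0.65 in L8. The same median over all transcripts tested was -0.04, -0.03 and -0.12.

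A channel library that does not enter the choice can be lower for that reason alone, so each of the 9 channel libraries was left out in turn and the members were chosen without it. The left-out library then had a median position between 0.752 (H9) and 1.11 (L6). The 3 libraries of DSxDS High had 0.851 (H3), 0.773 (H5) and 0.752 (H9), and those of Red River fish were between 0.794 (L9) and 1.11 (L6). Each left-out library was above every hybrid library in at least 94.2% of the transcripts so chosen. The choice itself favours high shares here, and the same shares over all transcripts were not determined. The left-out channel libraries kept 2 of their own group in the choice. The whole group of L8 was outside the choice, so L8 cannot be set against them directly.

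A closer comparison, added after the data were seen, left out a whole channel group. With RRxRR Low left out, its libraries had median positions of 0.468 (L2), 0.579 (L6) and 0.454 (L9), and each was above every hybrid library in 63.1% of 160 transcripts. L8, at 0.51 and 83.3%, was within that range of positions and above that share. The choice without RRxRR Low rested on channel libraries of the high temperature alone. That for L8 held low-temperature Red River libraries too, so RRxRR Low is not a like reference for L8. With DSxDS High left out, the choice rested on Red River libraries alone and reached the ceiling of 200 transcripts. The libraries of DSxDS High were then at 0.631 (H3), 0.615 (H5) and 0.654 (H9), and above every hybrid library in 92%, 88% and 89.5% of the transcripts. L8 was placed with DSxDS High, of its own strain, in the choice, so these values are not a like reference for it. With RRxRR High left out, its libraries were at 0.901 (H1), 0.902 (H4) and 0.959 (H7) in 90 transcripts. They were above every hybrid library in 97.8%, 93.3% and 97.8% of these. For the libraries of all left-out groups, the same shares over all transcripts were not determined. With TMM scaling L8 was at 0.608, above the 0.469 to 0.493 of RRxRR Low and the 0.578 to 0.598 of DSxDS High. In CPM the position of L8 and its share of 83.3% were below those of RRxRR High and DSxDS High with their groups left out. Its position was within the range of RRxRR Low. L5, at 0.412, and L3, at 0.0685, were below the libraries of all of these groups. Since RRxRR Low and DSxDS High are not like references, this order is a description only.

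In transcripts of the opposite pattern the median position of L8 was near 1. Over the 1031 transcripts much higher in hybrids, it was 1.002 (quartiles 0.968 and 1.04). In these the channel mean is the low end of the scale, under 0.35 of the hybrid mean. A given relative change from the channel level therefore moves the position less than in the members. The value cannot be set against the position of L8 in the members. In L5 the median over these transcripts was 0.682, and in L3 it was 0.255.

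**Figure D4:**
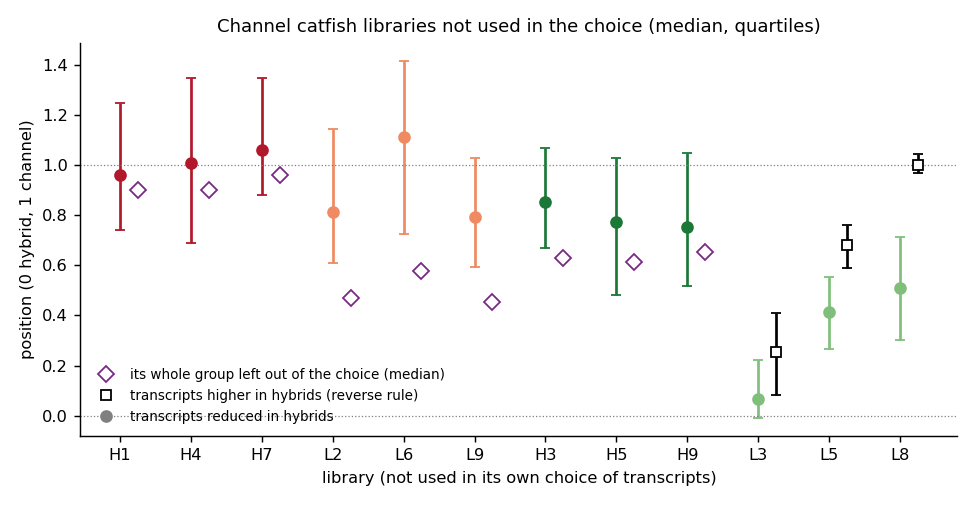
Median position and quartiles (vertical axis, 0 hybrid and 1 channel level) of channel libraries outside the choice. Circles give H1, H3, H4, H5, H7, H9, L2, L6 and L9, each left out in turn, and L3, L5 and L8 in the 84 members. Open diamonds give the median with the library's whole group left out. Open squares give L3, L5 and L8 in the 1031 transcripts higher in hybrids. L8 is at 0.51 in the members, and RRxRR Low is at 0.454 to 0.579 when that group is left out. RRxRR Low is not a like reference for L8, since its choice rested on channel libraries of the high temperature alone. Squares and circles cannot be compared in height, since the channel level is the low end of the scale for the squares.

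The members differed in where L8 fell. It was below the channel mean in 74 of the 84 (67.8% of all transcripts tested) and above it in 10. In 14 it was not above the highest hybrid library. In 40 it reached at least the lowest of the 9 channel libraries, a count whose share over all transcripts was not determined. The lowest positions were those of k94:1397778 (-0.132), given above, and k90:1941826 (-0.083). The latter had 1.24 CPM in L8 and 0.77 to 2.6 CPM in hybrid libraries, against 3.27 to 10.6 CPM in the 9 channel libraries, 1.87 CPM in L3 and 4.74 CPM in L5. The member k86:811674 was the opposite case, with 94.4 CPM in L8, 89.1 in L5 and 64.1 in L3, all within the 41 to 107 CPM of the 9 channel libraries and above the 10.4 to 19 CPM of hybrids. L3 had the lowest level of the 3 DSxDS Low libraries in 69 of the 84 members, and L8 the highest in 58. Shares over all transcripts were not determined for these 2 counts. Taken in pairs, L3 was below L8 in 76 members (40.8% of all transcripts tested) and L5 below L8 in 59 (37.6%).

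Delta Select and Red River fish were compared at the low temperature with edgeR's quasi-likelihood test over all 18 libraries, with p-values adjusted by the Benjamini-Hochberg method over 96799 transcripts. Changed, higher or lower refers below to an adjusted p under 0.05. All 84 members passed the filter on low counts. The Red River libraries entered the rule and were high by choice, so part of a difference is due to the choice. Of the 84 members, 13 were lower in DSxDS Low and 0 higher, where 1.24% of all transcripts were lower and 3.1% higher. DESeq2 also called 0 members higher, against 4676 of all transcripts. At an unadjusted p under 0.05 in edgeR 51 members differed (19.9% of all transcripts). The median log2 difference over the members was -0.86, against 0.02 over all transcripts tested.

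The difference rested in part on L3 and L5. Without them, with L8 alone assumed to vary like the other groups, 2 members were called lower (0.0909% of all transcripts), 0 higher (0.239%) and 19 differed at an unadjusted p under 0.05 (11.1%), and the median was -0.51 against -0.01 over all transcripts. Single libraries moved the count too. It was 39 members lower without L8, 8 without L5, 7 without L9, 6 without L2, 4 without L3 and 3 without L6. Over all 96799 transcripts the count moved as well, from 1196 lower with all libraries to 2753 without L8. It was 575 without L5, 406 without L9, 417 without L2, 214 without L3 and 195 without L6. DESeq2 called 29 members and 1877 transcripts lower. A fit of only these groups called 3 members and 88 of 96791 transcripts.

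Among the called members, the 2 of largest difference were the 2 that stayed called without L3 and L5. The member k50:2316211 had 1.06 (L3), 1.01 (L5) and 1.42 CPM (L8) in DSxDS Low and 10.5, 11.5 and 7.91 CPM in RRxRR Low. The hybrid libraries had 1.04 to 1.6 CPM, so L3 and L8 were within the hybrid range and L5 just below it. The log2 difference from RRxRR Low was -3.01 ± 0.25 (SE; edgeR, adjusted p = 2.34e-05), and -2.63 ± 0.37 without L3 and L5 (adjusted p = 0.00402). In DSxDS High the same transcript had 4.65 (H3), 6.54 (H5) and 4.04 CPM (H9), above every hybrid library and every DSxDS Low library.

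The other, k86:817535, had 5.03 (L3), 8.98 (L5) and 5.38 CPM (L8) in DSxDS Low, against 20.03, 18 and 24 CPM in RRxRR Low. These levels lay above the 2.2 to 3.75 CPM of hybrids and below Red River fish, without overlap. The log2 difference was -1.62 ± 0.24 (edgeR, adjusted p = 0.0036), and -1.78 ± 0.34 without L3 and L5 (adjusted p = 0.0342). Over all members, the 3 RRxRR Low libraries were above the 3 DSxDS Low libraries without overlap in 47 of 84, against 12% of all transcripts tested, and below them in 0 (6.66%). They were above L8 alone in 57 members (39.4% of all transcripts).

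At the high temperature the test called 0 members between the channel strains. The strains entered the rule differently, Red River fish by a mean over both temperatures and Delta Select fish by the high temperature alone. In edgeR, Red River fish were above Delta Select fish in 0.13% and below them in 0.152% of the transcripts tested, 10 members had an unadjusted p under 0.05 (8.94% of all transcripts), and the smallest adjusted p of a member was 0.111. RRxRR High was above DSxDS High without overlap in 13 members (4.47% of all transcripts) and below in 3 (12.9%). The median log2 difference of Red River minus Delta Select fish was 0.20, against 0.00 over all transcripts. Of the 84 members, 66 had a value above 0 (49.4% of all transcripts). DESeq2 called 4 members higher in Red River fish, as did edgeR without L3 alone or without L3 and L5 (0.295% of all transcripts higher, and as many lower). In the fit without both, k70:339092 and k50:1075571u had log2 differences of 1.66 ± 0.25 (edgeR, adjusted p = 0.00655) and 1.43 ± 0.22 (adjusted p = 0.00501), and k78:1282496 and k82:1040977 had 1.20 ± 0.25 and 1.17 ± 0.24 (adjusted p = 0.0451 and 0.0389). These 4 make up 2 of the sets that ran together. Over all transcripts, 404 were higher in Red River fish in DESeq2 and 196 in edgeR without L3.

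The members were next followed over temperature. The rule is not neutral to it, since DSxDS High entered the choice and DSxDS Low did not, which favours a rise in Delta Select fish and in the average over types. Averaged over the types, 26 of the 84 rose at the high temperature and 1 fell, where 10.5% of all transcripts rose and 9.75% fell. The median log2 change was 0.38, against -0.01 over all transcripts, and 72 members had a value above 0 (49.3% of all transcripts). The count is therefore no independent result on temperature. Without L3 and L5 19 rose (8.52% of all transcripts) and 3 fell (7.43%), with a median of 0.31 against 0.03. In the fit without L3 and L5, 67 members had a value above 0 (53.2% of all transcripts). Without L8, which leaves only L3 and L5 in DSxDS Low, 41 rose (11361 of all 96799 transcripts).

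The largest called rise was that of k62:2045892, given above by library, at a log2 change of 1.27 ± 0.17 (edgeR, adjusted p = 4.4e-05). It was followed by k62:1001076 at 1.12 ± 0.20 (adjusted p = 0.00106). Its level in hybrids was 2.93, 3.38 and 3.64 CPM at the high and 0.876, 1.54 and 1.1 CPM at the low temperature, without overlap. In Red River fish it was 7.28, 12 and 11.2 against 4.47, 10.1 and 6.22 CPM, with overlap. The member that fell was k86:811674, from 88.2 ± 17.1 to 63.8 ± 26.5 CPM in Red River, from 16 ± 2.72 to 12.6 ± 2.33 CPM in hybrid and from 82.5 ± 16.2 to 55.2 ± 7.13 CPM among Delta Select channel catfish (SD, n = 3). Its averaged log2 change was -0.52 ± 0.14 (edgeR, adjusted p = 0.012). These 3 calls held without L3 and L5 and under each other alternative tried.

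Within Red River fish few members were called. Here 2 rose and 1 fell, where 3.75% of all transcripts rose and 2.34% fell, and 10 members had an unadjusted p under 0.05 (19%). High and low libraries did not overlap in 16 members that were higher (11% of all transcripts) and 7 that were lower (14.6%) at the high temperature. The member k86:772347 rose from 12.1, 17.6 and 16.8 CPM to 38.2, 35.9 and 34.1 CPM, without overlap (log2 change 1.29 ± 0.32, edgeR, adjusted p = 0.0232). The member k78:1265628 rose from 4.14, 4.33 and 3.93 CPM to 7.41, 6.61 and 7.19 CPM (0.84 ± 0.22, adjusted p = 0.0304). The fall was that of k50:1937876, given above by library, with a log2 change of -2.72 ± 0.71 (adjusted p = 0.0397).

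The Red River calls rest on few libraries. Both rises lost their call when any of the 6 Red River libraries was left out, and so did the fall, which was also lost without H6, L4 or L7 and with no filter on low counts. The number of rises was 0 without H4, H7, L6 or L9, 1 without H1 or L2, 4 without L8 and 5 without L3. It was 7 without L3 and L5 (4.62% of all transcripts; 1 fell, against 3.18%, and 19 had an unadjusted p under 0.05, against 21.1%), 12 with only Red River libraries fitted, and 4 in DESeq2. The number of falls was 0 without H1, H4, H6, L2, L4, L6, L7 or L9 and with no filter on low counts, 1 (another member) without H7, and 4 with only Red River libraries fitted. Over all 96799 transcripts, rises ran from 2187 (L6) to 2671 (H1) with single Red River libraries left out. They were 4268 without L8, 4057 without L3 and 4033 in DESeq2. Falls over all 96799 transcripts ran from 1098 (H4) to 1658 (H1) with single Red River libraries left out, and were 1479 without H7. Without H6, L4 and L7 there were 2137, 2105 and 2139, and with no filter 1807 of 136462. With only Red River libraries fitted, 4447 of 96597 transcripts rose and 3123 fell. The median log2 change over the members was 0.21, against 0.00 over all transcripts.

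In hybrids 2 members rose and 0 fell, where 1.77% of all transcripts rose and 1.18% fell. DESeq2 also called 0 falls, against 2018 over all transcripts. In edgeR, 15 members had an unadjusted p under 0.05 (15% of all transcripts). The member k66:1276093 rose from 0.717, 1.3 and 0.987 CPM to 4.54, 2.9 and 3.28 CPM, a log2 change of 1.70 ± 0.39 (edgeR, adjusted p = 0.0279). In Red River fish its log2 change was -0.66 ± 0.34 (adjusted p = 0.327), from 19.9, 27.2 and 17.4 CPM to 17.1, 11.8 and 9.94 CPM, and its adjusted p in the joint test of the interaction was 0.217. The member k62:2045892 had a log2 change of 1.34 ± 0.29 in hybrids (adjusted p = 0.0178).

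These hybrid calls also depended on single libraries. The former was lost without any one of the 6 hybrid libraries or with no filter on low counts, and the latter without H2, H6, L1 or L4. The number of rises was 0 without H2, H6 or L1, 1 without H8, L4 or L7, 4 without H5, H9 or L8, and 6 without L3. It was 5 without L3 and L5 (2.26% of all transcripts), with 0 falls (1.78%) and 18 members at an unadjusted p under 0.05 (17.1%), 7 with only hybrid libraries fitted, 8 in DESeq2 and 1 with no filter on low counts. Over all 96799 transcripts, rises ran from 945 (L4) to 1323 (H2) with single hybrid libraries left out. They were 1553 without H5, 1714 without H9, 2054 without L8, 1993 without L3 and 2200 in DESeq2. With only hybrid libraries fitted 1644 of 96793 rose, and with no filter 1507 of 136462. The 3 high-temperature hybrid libraries were above the 3 low-temperature ones without overlap in 22 of the 84 members (16.6% of all transcripts tested) and below them in 2 (6.47%).

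In Delta Select channel catfish 23 members rose and 0 fell, where 5.66% of all transcripts rose and 7.19% fell. At an unadjusted p under 0.05 43 members differed (27.2% of all transcripts). DESeq2 called 27 rises and 1 fall, against 5565 and 8257 over all 96799 transcripts. The DSxDS High libraries entered the rule and the DSxDS Low libraries did not, so the choice itself favours a rise. The median log2 change over the members was 0.80, against -0.01 over all transcripts, and 82 of 84 had a value above 0 (49.5% of all transcripts). The 3 high-temperature libraries were above the 3 low-temperature ones in 46 members (18.8% of all transcripts tested) and below them in 1 (7.86%). They were above L8 alone in 56 members (45.5%).

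Most of these calls were made with L3 and L5. Without them 4 members rose (1.52% of all transcripts) and 0 fell (1.3%), with 19 at an unadjusted p under 0.05 (16.6%), and 3 of the 23 stayed called. The median was then 0.39, against 0.04 over all transcripts, and 60 of the 84 members had a value above 0 (53.2% of all transcripts). The number of rises was 10 without L3, 15 without H3 or H5 and 37 without L8, and 8 with only Delta Select libraries fitted. Over all transcripts, rises were 3070 without L3, 3285 without H3, 2983 without H5 and 6884 without L8. With only Delta Select libraries fitted they were 1707 of 96790. The fall count was 1 without H4, H7, H8 or L3, against 6549, 7453, 7521 and 3034 falls over all transcripts.

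Among the called members, the 2 largest rises in Delta Select fish were among those that stayed called. The member k50:2316211 rose by a log2 change of 2.02 ± 0.25 (edgeR, adjusted p = 5.81e-05), and by 1.64 ± 0.36 against L8 alone (adjusted p = 0.0186). In Red River fish its log2 change was -0.07 ± 0.22 and in hybrids 0.03 ± 0.26. The member k78:1248096 had 18.1 (H3), 15.8 (H5) and 15.1 CPM (H9) at the high and 2.79 (L3), 5.33 (L5) and 5.52 CPM (L8) at the low temperature. Red River fish had 7.11 to 12.6 CPM at both temperatures, between these levels, and hybrids 2.41 to 3.37 CPM. Its log2 change in Delta Select fish was 1.74 ± 0.23 (adjusted p = 0.000103), and 1.36 ± 0.26 against L8 alone (adjusted p = 0.00738).

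**Figure D5:**
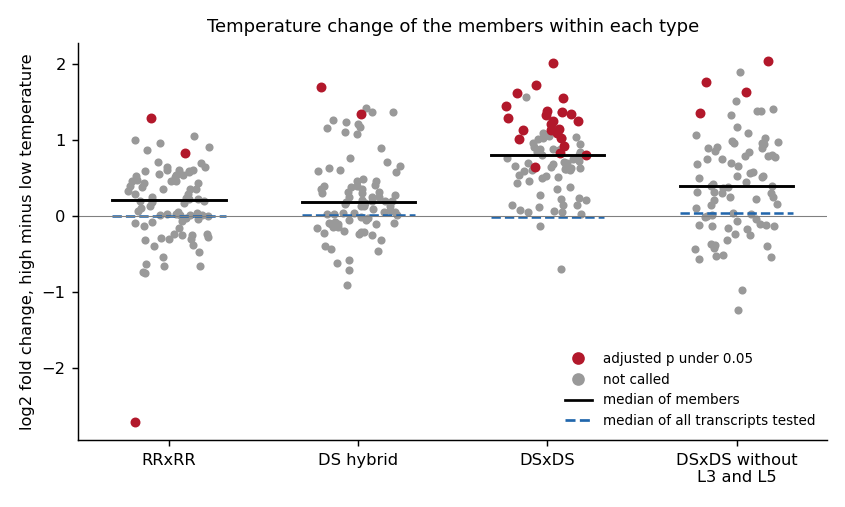
Log2 fold change of high minus low temperature (vertical axis) of the 84 members in Red River, hybrid and Delta Select fish and in Delta Select fish without L3 and L5; red points passed the test, solid bars are medians of the members and dashed bars medians of the 96799 transcripts tested. The members' median is 0.21, 0.18, 0.80 and 0.39.

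Whether the members responded to temperature differently in the types was tested directly, and no member was called. The joint interaction test of edgeR called 0 members and 0 of all transcripts (0%), with 15 members at an unadjusted p under 0.05 against 11.3% of all transcripts. The smallest adjusted p of a member was 0.132, for k50:2316211. DESeq2 called 4 members, and edgeR called 7 without L8, 1 without H9 and 0 without both L3 and L5 (0.0548% of all transcripts), where 10 members had an unadjusted p under 0.05 (8.65%). Over all 96799 transcripts, the joint calls were 1215 in DESeq2, 3363 in edgeR without L8 and 14 without H9. For hybrid against Red River fish, whose 12 libraries do not include L3 and L5, 0 members were called. At an unadjusted p under 0.05 there were 5 (5.8% of all transcripts). In DESeq2 1 member was called (61 of all transcripts), and with only these libraries fitted 1 (12). L3 and L5 enter this contrast only through the shared spread, and without them 0 members were called (0.0031% of all transcripts) and 5 had an unadjusted p under 0.05 (7.14%).

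The interaction of Delta Select with Red River fish, added after the data were seen, gave 0 called and 17 at an unadjusted p under 0.05 (11.6% of all transcripts), and 0 called (0.0351%) and 9 (8.95%) without L3 and L5. Its median log2 difference over the members was 0.62, and 0.23 without L3 and L5, against -0.02 and 0.03 over all transcripts. The choice favours this difference, since of the Delta Select libraries those of the high temperature alone entered it, while both Red River temperatures did. DESeq2 called 3 members (845 of all 96799 transcripts), and edgeR 6 without L8 (2443) and 1 without H9 (35). The interaction of Delta Select with hybrid fish gave 0 called and 15 at an unadjusted p under 0.05 (10.7% of all transcripts). Without L3 and L5 0 were called (0.0465%) and 8 had an unadjusted p under 0.05 (7.2%), and the choice favours a difference here too. DESeq2 called 2 members (970 of all 96799 transcripts), and edgeR 6 without L8 (3769).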

How the data were processed

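For each of 144746 assembled transcripts, the authors deposited a raw count per library (18 libraries). A further row, with no transcript name, took 24.2% to 25.6% of the reads and stayed out of library sizes and tests. The submitters' processing notes list Bowtie2 2.1.0, DESeq 1.12.1 and R 3.1.0 without saying what each did. Assembler, strand setting and the handling of multiply matching reads were not stated there, so counts of near-identical transcripts, alleles of the parent species included, are uncertain. A second, normalized table was not used. Libraries were grouped by their titles.

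The members and lists were chosen with earlier results of these data known. CPM is the count divided by the library's sum over transcripts. Tests used edgeR 4.0.16 in R 4.3.3 (quasi-likelihood, robust, TMM, a mean per group over all 18 libraries, filterByExpr with minimum count 10 and minimum total 15), which kept 96799 transcripts. DESeq2 1.42.0 was an alternative. The scripts were run on simulated data with an assumed spread and no library that stands apart. That run does not measure how many true changes the tests miss in these data. Standard errors come from the F statistic. The p-values measure the spread between tank pools. Transcripts named are the 2 of lowest ratio, the 2 of highest channel CPM, those at the limit, the 2 lowest in L8 and, per contrast, at most 2 called in each direction. k58:6696, k70:339092, k78:1282496 and k82:1040977 were named after their values were seen.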

Additional observations from a re-analysis of the deposited data

How the results depend on the processing

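Across single left-out libraries, the count of members that rose at the high temperature, averaged over types, ran from 21 to 41 and that of falls was 1 throughout. Rises ran from 0 to 5 in Red River, from 0 to 6 in hybrid and from 10 to 37 in Delta Select fish, and falls from 0 to 1, 0 to 0 and 0 to 1. Members lower in DSxDS Low than in RRxRR Low ran from 3 to 39, and higher from 0 to 0. Members higher in RRxRR High than in DSxDS High ran from 0 to 4, and lower from 0 to 0. Joint interactions ran from 0 to 7, hybrid against Red River from 0 to 0, and Delta Select against Red River or hybrid from 0 to 6. Without L3 and L5 the averaged falls were 3, the rises 7 in Red River, 5 in hybrid and 4 in Delta Select fish, and 4 members were higher in RRxRR High and 2 lower in DSxDS Low. With only the groups compared, rises were 12, 7 and 8 in Red River, hybrid and Delta Select fish, Red River falls 4, members higher in RRxRR High 1, lower in DSxDS Low 3, and hybrid against Red River interactions 1. DESeq2 gave 4 Red River rises, 8 hybrid rises, 1 Delta Select fall, 4 higher in RRxRR High, 29 lower in DSxDS Low and 4, 1, 3 and 2 interactions (joint, hybrid with Red River, Delta Select with Red River, Delta Select with hybrid). With no filter, hybrid rises were 1 and Red River falls 0. The cause of these changes was not tested. Size factors of DESeq2 within edgeR moved no count by over 1.5 times. The calls over all transcripts moved between these fits as well, and part of those counts is given above. With only the groups compared, 117 of 96637 transcripts were higher in RRxRR High. Averaged over types, 8098 of 96799 transcripts rose without H8, where 21 members rose.

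The median position ranged, without single reference libraries, from 0.0599 to 0.0851 in L3, 0.406 to 0.428 in L5 and 0.475 to 0.511 in L8. With references from the low temperature only it was 0.136, 0.471 and 0.519. The median ratio of hybrid to channel level ran from 0.286 to 0.312, and it was 0.246 in the 42 members of lowest ratio by construction. The planned choice of 100 members could not be made from 84. No paired analysis was possible because the library codes run on across types and the labels name no shared replicate.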
